A study of Homo sapiens with 18 samples.

Results

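The unfolded protein response and the chaperones of the endoplasmic reticulum (ER) were followed through 40 genes in RNA-seq counts of the medulloblastoma lines D425 and D458 with and without EYA2 knockdown. The genes were listed by name, as sensors, transcription factors, chaperones, disulfide isomerases and parts of ER-associated degradation, with no measured value in the rule, but earlier results of these data were known when the list was made. All 40 were among the 25369 symbols of the count table (SELS under its other symbol VIMP), and all 40 were among the 14850 genes with enough counts to test. D425 and D458 are labelled as Group 3 medulloblastoma, a childhood tumour of the cerebellum. Every group carried a short hairpin RNA with zsGreen: a non-targeting control in each line, EYA2 hairpins 6 and 8 in D425, and EYA2 hairpins 7 and 8 in D458. EYA2 is a cofactor of homeobox transcription factors and also has phosphatase activity. Controls and knockdown cells alike spent 48 h in 1 µg/mL puromycin, were sorted for the top 10% of zsGreen, and recovered for 24 h before RNA was taken. Each of the 6 groups had 3 replicates, which gave 18 libraries. The labels do not say whether replicates were separate transductions, so p-values measure the spread between these libraries, which may be technical.

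Proteins that enter the ER are folded by chaperones, joined by disulfide bonds by isomerases, and removed by ER-associated degradation when they fail to fold. When unfolded proteins build up, 3 sensors in the ER membrane respond. ATF6 is cut to release a transcription factor that drives chaperone genes. IRE1, the product of ERN1, splices the mRNA of XBP1, whose protein drives genes of folding, transport and degradation. PERK, the product of EIF2AK3, phosphorylates eIF2α and raises translation of ATF4, which leads to DDIT3 (CHOP), ATF3 and the phosphatase subunit PPP1R15A (GADD34). The sensors are switched on at the protein level, and a gene count does not separate the spliced from the unspliced XBP1 mRNA.

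Library totals ran from 21260369 to 31552051 counts. Levels are given as CPM, counts scaled to one library size with TMM factors, and fold changes as log2 values from an edgeR quasi-likelihood fit, ± standard error (SE). Calls were made at an adjusted p below 0.05, with the Benjamini-Hochberg adjustment taken over the 14850 genes tested. EYA2 changed by -1.24 ± 0.27 (D425 hairpin 6), -0.98 ± 0.27 (D425 hairpin 8) and -1.79 ± 0.27 (D458 hairpin 8), adjusted p = 0.00693, 0.017 and 5.1e-04. D458 hairpin 7 gave -0.55 ± 0.26, which missed the threshold (adjusted p = 0.137) and passed with the replicate number as a block (0.00692). For D425 hairpin 8 the EYA2 call was lost without control replicate 1, hairpin replicate 2 or hairpin replicate 3. OTX2 and MYC, marker genes of Group 3 tumours, averaged 1410 to 2120 and 2450 to 4050 CPM over the groups, while EOMES, another such marker, stood at 0 to 0.114 CPM. The summed level of 6 blood markers ran from 1.83 to 8.73 CPM. CD3E and HBB had group means of at most 0.0318 CPM. HBA1, whose reads can be shared with its near-identical copy HBA2, averaged 1.11 CPM in D425 controls and fell to 0.109 and 0.127 with hairpins 6 and 8. PTPRC averaged 0.0139 CPM in D458 controls and 0.188 with hairpin 7, where it was called higher. The summed level of 5 glia markers ran from 13.7 to 32.6 CPM, nearly all of it OLIG2, and none was called in the 4 comparisons (2 tested). Of 6 fibroblast markers, the summed level ran from 18.5 to 33.1 CPM in D425 controls, 42.6 to 85.2 with hairpin 6 and 50.9 to 95.6 with hairpin 8. In D458 it ran from 6.89 to 8.44 CPM in controls, 34.3 to 55.6 with hairpin 7 and 32.2 to 60.9 with hairpin 8. COL3A1 was at 0 in all D458 controls, and the part of these markers in the results below was not tested. In bulk RNA, fewer cells of a type and less RNA per cell cannot be told apart.

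The promoters of the members were read first, because ATF6 and XBP1 are known to act through short DNA elements near the start of their target genes. Promoters of 300 bases, 250 before to 50 after the start, came from RefSeq (GRCh38.p14) and were found for 37 members; PDIA3, SPCS1 and DERL1 were not searched. The ER stress response element (ERSE), searched as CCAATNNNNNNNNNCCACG on both strands, stood in 7 of 37 member promoters (18.9%) and in those of 25 of all 27305 genes with a promoter in the table (0.0916%). The members were HSPA5, HSP90B1, CALR, CANX, PDIA6, XBP1 and CRELD2, and HSP90B1 had 2 sites. Of these, 6 are shown, with CANX left out because its site overlaps 1 of the starts listed for that gene. Each is read along the gene's strand, 20 bases to either side of the element, with the element in capitals. In CALR and CRELD2 it runs in the opposite direction.
HSPA5, chr9:125241371-125241429, minus strand: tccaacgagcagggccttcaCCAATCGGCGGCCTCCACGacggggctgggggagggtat
HSP90B1, chr12:103930196-103930254, plus strand: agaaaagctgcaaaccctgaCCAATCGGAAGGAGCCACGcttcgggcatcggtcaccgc
PDIA6, chr2:10812833-10812891, minus strand: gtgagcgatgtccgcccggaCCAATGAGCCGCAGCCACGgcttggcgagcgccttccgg
CALR, chr19:12938364-12938422, plus strand: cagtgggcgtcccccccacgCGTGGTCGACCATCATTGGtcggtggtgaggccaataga
CRELD2, chr22:49918534-49918592, plus strand: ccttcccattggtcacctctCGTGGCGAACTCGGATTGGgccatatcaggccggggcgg
XBP1, chr22:28800583-28800641, minus strand: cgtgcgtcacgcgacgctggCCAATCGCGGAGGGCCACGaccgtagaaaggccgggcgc

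The shorter element ERSE-II, searched as ATTGGNCCACG on both strands, stood in 3 of 37 member promoters (8.11%) and in those of 19 of all 27305 genes (0.0696%). The 3 members are shown in the same way. HYOU1 had 2 sites, of which the nearer to the start is given, and in HYOU1 and SDF2L1 the element runs in the opposite direction.
HYOU1, chr11:119057254-119057304, minus strand: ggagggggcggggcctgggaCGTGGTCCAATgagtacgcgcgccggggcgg
SDF2L1, chr22:21642094-21642144, plus strand: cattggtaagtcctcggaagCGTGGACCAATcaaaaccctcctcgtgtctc
HERPUD1, chr16:56932005-56932055, plus strand: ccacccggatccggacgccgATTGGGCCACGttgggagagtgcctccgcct

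The last base of the ERSE lay 48 bases before the start in HSPA5, 34 in XBP1 and 207 in CALR. The core of the XBP1-type element, TGACGTGG, stood in 2 member promoters, DNAJC10 and HYOU1, and in those of 253 of all genes (0.927%); in HYOU1 it overlaps an ERSE-II. The core of the ATF4 composite element, TGATGNAA, stood in ATF3, CREB3L2 and HERPUD1 and in those of 1217 of all genes (4.46%). These are matches of letters in a window, not measured binding. The members were listed as genes of this response, so a high share of its known elements among them is not an independent result.

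The count of members that moved was taken next, to see how wide the response was in each line. Of the 40 members, 11 fell with D425 hairpin 6, 15 with D425 hairpin 8, 14 with D458 hairpin 7 and 14 with D458 hairpin 8. Over all genes tested, 6.84%, 10.1%, 11.1% and 11.1% fell in these comparisons. Members that rose numbered 2, 4, 3 and 2, beside 7.31%, 11.6%, 11.5% and 12.1% of all genes. Every hairpin library lay below every control library for 19, 18, 19 and 15 members, against 17.2%, 17.4%, 21.5% and 20.7% of all genes. The median log2 change of the 40 was -0.18, -0.19, -0.20 and -0.17, against 0.01, 0.02, 0.01 and 0.01 over all genes tested. Both hairpins of a line were set against the same 3 controls, so their counts are not separate evidence.

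In all 4 comparisons 9 members fell, as did 0.795% of all genes. They were HSPA5, HSP90B1, HYOU1, MANF, DNAJB11, DNAJC3, PDIA3, PDIA4 and PDIA6. CREB3L1 rose in all 4, as did 1.16% of all genes. CALR, XBP1 and CRELD2 fell in 3 comparisons, and 22 members fell in none. No member fell in a comparison of one line and rose in one of the other. Per the labels, replicate 1 of each group carried an earlier date than replicates 2 and 3. All 65 member calls over the 4 comparisons had the same direction within each replicate number, hairpin against the control of that number. These calls came from the same libraries, and each control served both hairpins of its line. The shared direction was therefore largely set in advance and is not separate evidence. With the replicate number as a block, 20 members were called with D425 hairpin 6 (17 lower and 3 higher) in place of 13. Calls over all genes rose as well, from 1015 lower and 1086 higher to 4134 in total. Without D458 control replicate 1, which held the highest control level of many chaperones, 6 of the 9 were still called lower in all 4. The picture of all members by library sets these chaperones and isomerases beside the members that did not move.

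**Figure D1:**
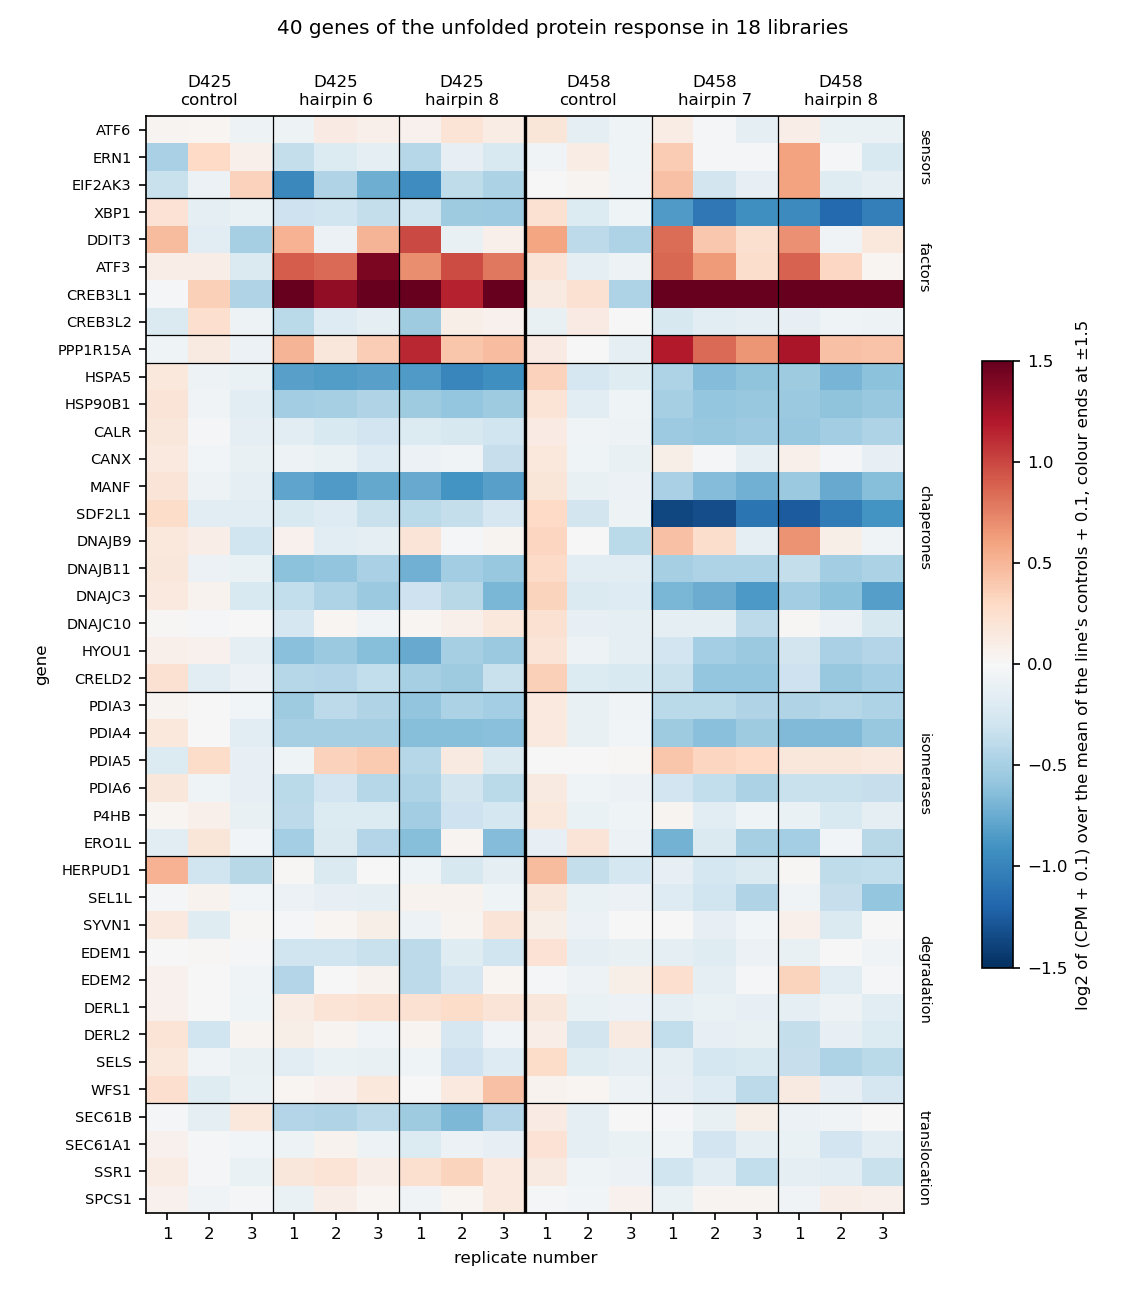
Level of the 40 members (rows, by role) in the 18 libraries (columns), as log2 of CPM plus 0.1 over the mean of the same line's controls plus 0.1, with the colour scale ending at 1.5 on either side. Control replicate 1 is the reddest control column for most chaperones in both lines, and CREB3L1 is the row that is highest under every hairpin.

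HSPA5 (BiP, GRP78), the HSP70 chaperone of the ER that also holds the sensors inactive, had the lowest estimates of the chaperones in D425. Its D425 controls held 1321, 1122 and 1106 CPM, the hairpin 6 libraries 673, 660 and 670.0, and the hairpin 8 libraries 657, 602 and 626. In D458 the controls held 1215, 803 and 843 CPM, hairpin 7 gave 690, 606 and 628, and hairpin 8 gave 657, 588 and 623. All 12 hairpin libraries of HSPA5 were below all controls of their line, and D458 control replicate 1 stood well above the other controls of that line. The changes were -0.83 ± 0.12, -0.91 ± 0.12, -0.57 ± 0.12 and -0.62 ± 0.12 (adjusted p = 4.4e-04, 1.4e-04, 0.004 and 0.00249), which left 56.4%, 53.1%, 67.2% and 65.3% of control. HSPA5 lies on chromosome 9. The 50 tested genes nearest to it had medians of -0.47 and -0.51 in D425, and all 571 tested genes of chromosome 9 had medians of -0.30 and -0.27. In D458 the neighbours had medians of 0.08 and 0.09. The part of this regional shift in the D425 fall was not tested.

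HSP90B1 (GRP94), the HSP90 chaperone of the ER, fell in both lines. Its D425 controls held 1015, 854 and 793 CPM, against 619, 626 and 651 with hairpin 6 and 612, 594 and 611 with hairpin 8. Its D458 controls held 1112, 863 and 928 CPM, against 687, 648 and 653 with hairpin 7 and 659, 639 and 650 with hairpin 8. The groups did not overlap, and the 12 hairpin libraries lay closer together than the 6 controls. The changes were -0.49, -0.55, -0.55 and -0.58, each ± 0.09 (adjusted p = 0.00193, 5.5e-04, 8.8e-04 and 5.7e-04). HYOU1 (GRP170), a large HSP70-related protein that helps HSPA5 exchange nucleotide, held 530, 524 and 456 CPM in D425 controls, 325, 343 and 325 with hairpin 6 and 299, 356 and 342 with hairpin 8. The D458 levels of HYOU1 were 373, 309 and 294 CPM in controls, 266, 229 and 221 with hairpin 7 and 269, 233 and 241 with hairpin 8. HYOU1 thus started from a lower control level in D458 and fell in both lines, by -0.61 ± 0.10, -0.60 ± 0.10, -0.45 ± 0.10 and -0.39 ± 0.10 (adjusted p = 0.00102, 6.8e-04, 0.00603 and 0.0121). The D458 hairpin 8 call of HYOU1 was lost without control replicate 1 or hairpin replicate 2 (adjusted p up to 0.0864).

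MANF, a small secreted factor that binds HSPA5 and leaves the cell under ER stress, fell in both lines as well. It held 147, 121 and 116 CPM in D425 controls, 73.9, 71.1 and 75.1 with hairpin 6 and 75.9, 68.6 and 73.0 with hairpin 8. The D458 levels of MANF were 105, 86.1 and 87.4 CPM in controls, 66.3, 58.9 and 56.4 with hairpin 7 and 62.9, 55.0 and 59.7 with hairpin 8. No hairpin library reached a control. The changes of MANF were -0.80 ± 0.10, -0.82 ± 0.10, -0.62 ± 0.10 and -0.65 ± 0.10 (adjusted p = 1.2e-04, 7.9e-05, 8.2e-04 and 5.2e-04).

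The co-chaperones DNAJB11 and DNAJC3, J-domain proteins that deliver substrates to HSPA5, also fell in both lines. DNAJB11 held 174, 145 and 143 CPM in D425 controls against 100.3, 102 and 110 with hairpin 6 and 93.0, 107 and 103 with hairpin 8. In D458 it held 174, 126 and 126 CPM in controls against 101, 103 and 103 with hairpin 7 and 111, 99.3 and 102 with hairpin 8. Its changes were -0.56, -0.61, -0.48 and -0.45, each ± 0.11 (adjusted p = 0.00286, 0.00115, 0.00716 and 0.00967), with the last lost without D458 control replicate 1 (adjusted p = 0.0609). DNAJC3, known also as an inhibitor of PERK, held 87.9, 82.4 and 67.5 CPM in D425 controls against 61.2, 57.4 and 53.9 with hairpin 6 and 63.9, 59.5 and 49.2 with hairpin 8. The D458 levels of DNAJC3 were 68.1, 46.5 and 47.1 CPM in controls against 33.4, 32.2 and 29.6 with hairpin 7 and 37.6, 35.1 and 30.4 with hairpin 8. The D458 falls of DNAJC3 (-0.76 ± 0.15 and -0.65 ± 0.14, adjusted p = 0.00224 and 0.00556) held without any 1 library. DNAJC3 lost its D458 hairpin 8 call without replicate 2 in all groups (adjusted p = 0.0629, edgeR). Its D425 falls (-0.46 ± 0.14 with either hairpin, adjusted p = 0.0387 and 0.0288) were lost without 5 of the 6 libraries for hairpin 6, all but control replicate 3. For hairpin 8 they were lost without control replicate 1, control replicate 2 or hairpin replicate 3.

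CALR, SDF2L1 and CRELD2 fell with both D458 hairpins, and CALR and CRELD2 also with D425 hairpin 8. CALR (calreticulin), the soluble lectin chaperone of glycoproteins, ranged from 1194 to 1373 CPM in D458 controls and from 852 to 918 over the 6 hairpin libraries of that line. It changed by -0.55 ± 0.08 and -0.51 ± 0.08 (adjusted p = 2.4e-04 and 4.2e-04) in D458 and by -0.23 ± 0.08 and -0.25 ± 0.08 in D425 (adjusted p = 0.0569 and 0.0285). With the replicate block the D425 hairpin 6 change of CALR passed (adjusted p = 0.0114), while the hairpin 8 call was lost without 4 of 6 libraries, control replicates 1 and 2 and hairpin replicates 2 and 3, and when D425 was fitted alone (adjusted p = 0.0652). SDF2L1, which keeps clients of HSPA5 from aggregating, held 40.9, 27.4 and 31.4 CPM in D458 controls, 12.8, 13.1 and 15.5 with hairpin 7 and 13.9, 15.9 and 17.7 with hairpin 8. These D458 levels of SDF2L1, 41.6% and 47.7% of control, gave changes of -1.26 ± 0.15 and -1.07 ± 0.15 (adjusted p = 8.5e-05 and 2.8e-04). In D425 its changes were -0.25 ± 0.15 and -0.34 ± 0.15 (adjusted p = 0.284 and 0.11). CRELD2, a secreted ER protein induced by stress, fell by -0.45 ± 0.14, -0.50 ± 0.15 and -0.46 ± 0.15 with D425 hairpin 8 and the D458 hairpins (adjusted p = 0.0355, 0.0236 and 0.0323). Its change with D425 hairpin 6 was -0.41 ± 0.14 (adjusted p = 0.0686, and 0.00595 with the replicate block). The calls of CRELD2 were lost without control replicate 1 in either line (D458 adjusted p up to 0.237), among other libraries: control replicate 3 and hairpin replicates 1 and 2 in D425, and hairpin replicates 2 and 3 in D458. Both D458 calls were also lost when that line was fitted alone (adjusted p = 0.0579 and 0.0695).

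The other 3 chaperones did not pass in any comparison. CANX (calnexin), the membrane-bound partner of CALR, had changes from -0.16 ± 0.10 to -0.02 ± 0.10, although its promoter holds an ERSE. With the replicate block its D425 hairpin 8 change passed (-0.16, adjusted p = 0.0348). DNAJB9, a J-domain protein known as a sensitive IRE1 target that represses IRE1, had changes from -0.07 ± 0.21 to 0.28 ± 0.21. DNAJC10, a J-domain reductase, had changes from -0.22 ± 0.11 to 0.09 ± 0.11, and passed with D458 hairpin 7 under the replicate block (-0.22, adjusted p = 0.0263).

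**Figure D2:**
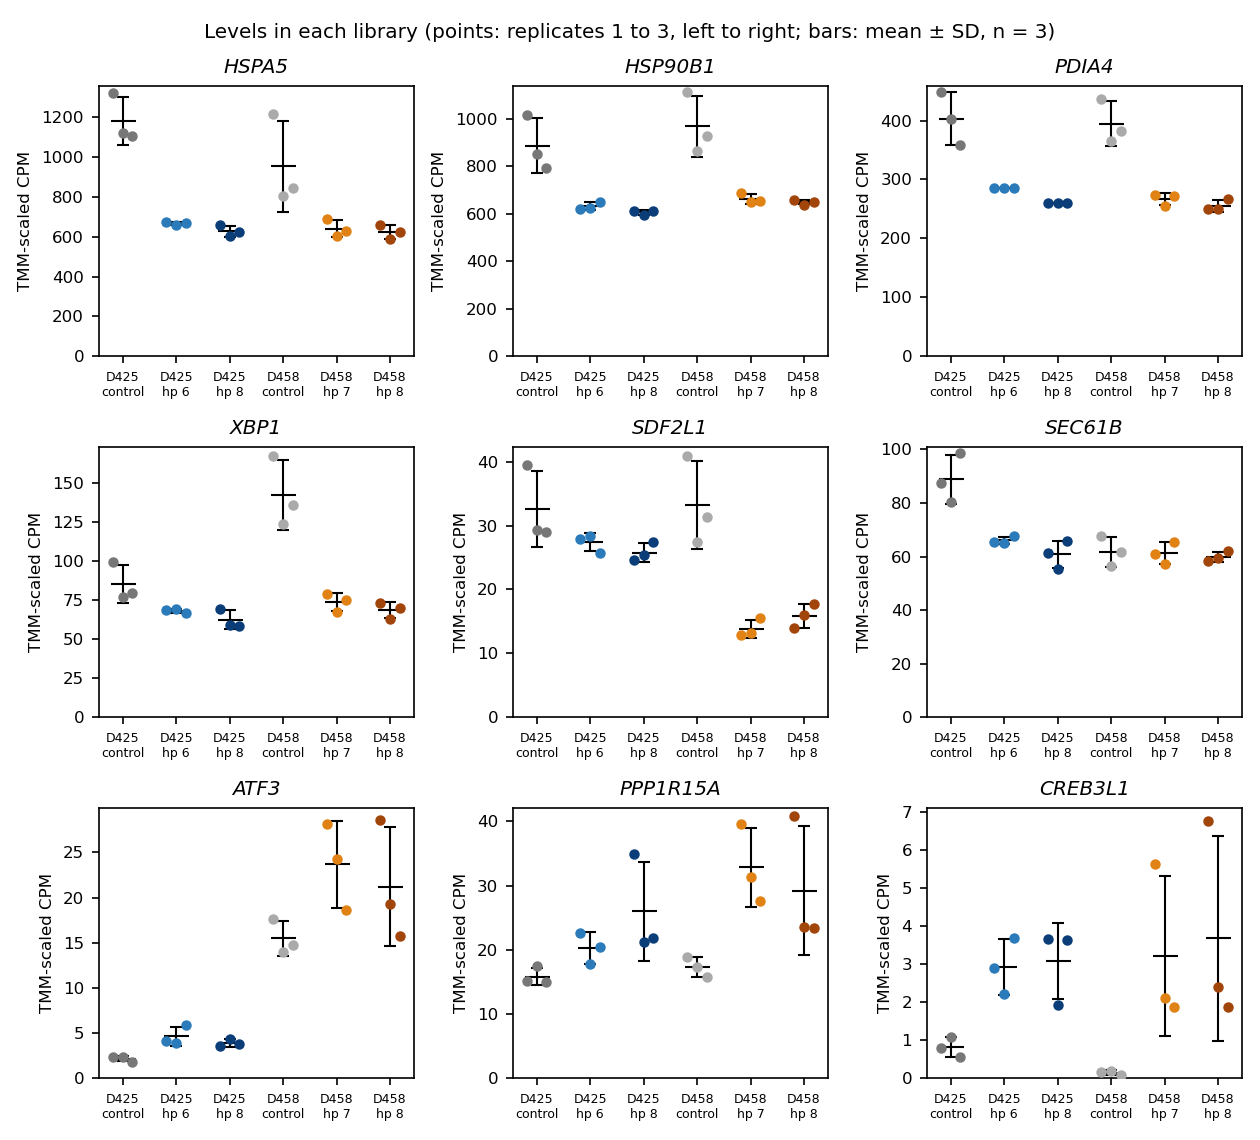
TMM-scaled CPM of 9 members in each library (points, replicates 1 to 3 from left to right), with mean ± SD (n = 3) by group. HSPA5, HSP90B1 and PDIA4 are lower under all 4 hairpins, XBP1 and SDF2L1 fall most in D458, SEC61B falls in D425, and ATF3, PPP1R15A and CREB3L1 are higher.

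Of the 6 genes for isomerases and their oxidase, PDIA3, PDIA4 and PDIA6 fell in all 4 comparisons. PDIA3 (ERp57), which works with CALR and CANX on glycoproteins, held 623, 604 and 587 CPM in D425 controls, 418, 461 and 441 with hairpin 6 and 401, 436 and 426 with hairpin 8. In D458 it held 596, 496 and 517 CPM in controls, 407, 406 and 393 with hairpin 7 and 393, 399 and 389 with hairpin 8. Its changes were -0.46, -0.52, -0.42 and -0.45, each ± 0.07 (adjusted p = 5.2e-04, 1.3e-04, 8.6e-04 and 4.9e-04). PDIA4 (ERp72), another isomerase with a chaperone role, varied little between hairpin replicates in D425, with 285, 286 and 285 CPM under hairpin 6 and 260.0, 260 and 260 under hairpin 8 against D425 controls of 448, 402 and 359. The D458 levels of PDIA4 were 437, 365 and 382 CPM in controls, 273, 255 and 272 with hairpin 7 and 250, 250 and 266 with hairpin 8. Its changes were -0.50, -0.63, -0.57 and -0.63, each ± 0.08 (adjusted p = 7.4e-04, 9.6e-05, 2.5e-04 and 1.4e-04). HSPA5, HSP90B1, MANF, PDIA3 and PDIA4 were the 5 of these 9 members whose calls all held without any 1 library. Leaving out a replicate number in all groups ended some of them (edgeR). Without replicate 3, calls were lost for HSPA5 (D458 hairpin 7, adjusted p = 0.0715) and HSP90B1 (D425 hairpin 6, 0.0585). PDIA3 then lost its D425 hairpin 6 and D458 hairpin 7 calls (0.0545 and 0.0515). Without replicate 2, HSP90B1 and PDIA4 lost their D425 hairpin 6 calls (0.0821 and 0.0707).

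PDIA6 (P5), an isomerase known to act on IRE1 and PERK, held 380, 324 and 312 CPM in D425 controls, 256, 277 and 252 with hairpin 6 and 246, 281 and 255 with hairpin 8. In D458 it held 294, 255 and 252 CPM in controls, 219, 207 and 192 with hairpin 7 and 212, 212 and 210 with hairpin 8. Its changes were -0.37, -0.38, -0.37 and -0.34, each ± 0.09 (adjusted p = 0.00795, 0.00531, 0.00684 and 0.011), and the last was lost without D458 control replicate 1 (adjusted p = 0.0721). P4HB (PDI), the most abundant isomerase here, fell with D425 hairpin 8 (-0.36 ± 0.09, adjusted p = 0.01), a call lost without hairpin replicate 1. With hairpin 6 its -0.26 ± 0.09 passed under the replicate block (adjusted p = 0.00639 against 0.0618), and in D458 its changes were -0.06 ± 0.09 and -0.15 ± 0.09. The 50 neighbours of P4HB on chromosome 17 had medians of -0.24 and -0.30 in D425, and their part was not tested. PDIA5 and the oxidase ERO1L did not pass. Under the replicate block PDIA5 was higher with D425 hairpin 6 (0.24, adjusted p = 0.025) and D458 hairpin 7 (0.35, adjusted p = 0.00234). ERO1L, which reoxidises P4HB, was then lower in all 4 comparisons (-0.39, -0.41, -0.47 and -0.32, adjusted p = 0.00281, 0.00143, 6.2e-04 and 0.0079).

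None of the 3 sensors was called by edgeR in any of the 4 comparisons, and only EIF2AK3 had an unadjusted p under 0.05, with either D425 hairpin (0.00874 and 0.0254). ATF6 held 70.5 to 76.0 CPM in D425 controls and 70.4 to 85.2 over the hairpin libraries, and 90.6 to 113 CPM in D458 controls and 90.9 to 107 over the hairpin libraries. Its changes were 0.04, 0.13, -0.01 and -0.03, each ± 0.09. ERN1 held 16.9, 29.1 and 25 CPM in D425 controls against 17.6 to 21.7 with the hairpins, and 13.6, 15.2 and 13.5 CPM in D458 controls against 12.1 to 21.5. Its changes were -0.23 ± 0.20, -0.26 ± 0.20, 0.13 ± 0.21 and 0.16 ± 0.21. Without replicate 1 in all groups, ERN1 was called lower with both D425 hairpins (-0.36 and -0.37, adjusted p = 0.0432 and 0.0325). EIF2AK3 held 25.3, 29.9 and 40.6 CPM in D425 controls, 16.3, 23.3 and 19.2 with hairpin 6 and 16.7, 24.6 and 23 with hairpin 8. All 6 hairpin libraries of D425 were below all controls, yet the changes of -0.71 ± 0.24 and -0.58 ± 0.24 did not pass (adjusted p = 0.0574 and 0.0896). Under the replicate block they did (adjusted p = 0.00248 and 0.00582), as they did without replicate 1 (0.00217 and 0.00866). The hairpin 6 change also passed with D425 fitted alone (0.043) and in DESeq2 (0.0287), which called no other change of a sensor. In D458, EIF2AK3 held 20.2, 20.6 and 19.4 CPM in controls, 27.2, 16.6 and 18.4 with hairpin 7 and 30.6, 17.7 and 18.3 with hairpin 8. There replicate 1 was above its control under both hairpins and replicates 2 and 3 were below, and the changes were 0.05 ± 0.24 and 0.15 ± 0.24.

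XBP1, the transcription factor made from the mRNA that IRE1 splices and itself a target of ATF6, fell more in D458 than in D425. Its D458 controls held 167, 124 and 136 CPM, against 79.0, 67.4 and 75.2 with hairpin 7 and 73.2, 63.2 and 69.9 with hairpin 8. In D425 the controls held 99.2, 77.0 and 79.6 CPM, hairpin 6 gave 68.7, 69.0 and 66.6, and hairpin 8 gave 69.3, 59.1 and 58.5. The knockdown libraries of both lines thus ended in one range, 58.5 to 79.0 CPM, from control levels that differed (D458 against D425 controls 0.74 ± 0.12, adjusted p = 3.4e-05). The D458 changes of XBP1 were -0.95 ± 0.12 and -1.05 ± 0.12 (adjusted p = 1e-04 and 4.1e-05) and held without any 1 library. In D425 they were -0.32 ± 0.12 (adjusted p = 0.0745, and 0.00435 with the replicate block) and -0.45 ± 0.12 (adjusted p = 0.0115, lost without control replicate 1 at 0.0506). XBP1 and SDF2L1 both lie on chromosome 22, where their 50 nearest tested genes had D458 medians of -0.24 and -0.29 for XBP1 and -0.24 and -0.20 for SDF2L1. The part of these neighbours' shifts was not tested.

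Of the PERK arm, 2 members rose and none was called lower. ATF3, a factor induced by PERK and by other stress signals, held 2.30, 2.31 and 1.84 CPM in D425 controls, 4.12, 3.96 and 5.88 with hairpin 6 and 3.56, 4.35 and 3.81 with hairpin 8. In D458 its level was higher throughout, at 17.7, 14 and 14.7 CPM in controls, 28.2, 24.2 and 18.6 with hairpin 7 and 28.6, 19.3 and 15.8 with hairpin 8. ATF3 was above the control of the same number in all 12 hairpin libraries, and its groups overlapped only for D458 hairpin 8. Its changes were 1.12 ± 0.24, 0.86 ± 0.24 and 0.61 ± 0.21 (adjusted p = 0.00478, 0.0167 and 0.0439), and 0.46 ± 0.21 with D458 hairpin 8 (adjusted p = 0.122, and 0.0306 with the replicate block). The D425 hairpin 6 call held without any 1 library, but not without replicate 2 or replicate 3 in all groups (adjusted p = 0.102 and 0.152, edgeR). The D425 hairpin 8 call was lost without control replicate 3 (adjusted p = 0.0863), and the D458 hairpin 7 call without 5 of 6 libraries, all but hairpin replicate 3, and with that line fitted alone (adjusted p = 0.0738).

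PPP1R15A (GADD34), which directs dephosphorylation of eIF2α and so ends the PERK signal, held 15.2, 17.4 and 14.9 CPM in D425 controls, 22.7, 17.8 and 20.4 with hairpin 6 and 34.9, 21.2 and 21.9 with hairpin 8. In D458 it held 18.9, 17.3 and 15.8 CPM in controls, 39.6, 31.4 and 27.5 with hairpin 7 and 40.8, 23.5 and 23.3 with hairpin 8. Every hairpin library was above every control, and replicate 1 was the highest of each hairpin group. PPP1R15A rose by 0.71 ± 0.22, 0.92 ± 0.22 and 0.75 ± 0.22 with D425 hairpin 8 and the D458 hairpins (adjusted p = 0.0297, 0.00886 and 0.0233), and its 0.36 ± 0.22 with D425 hairpin 6 did not pass (adjusted p = 0.317). The D458 hairpin 7 call was lost without hairpin replicate 1 (adjusted p = 0.0559). The D458 hairpin 8 call was lost without control replicate 2, control replicate 3 or hairpin replicate 1, and the D425 hairpin 8 call without any control or hairpin replicate 1. DDIT3 (CHOP), the factor tied to cell death under lasting stress, held 13.3, 8.54 and 6.73 CPM in D425 controls, 13.8, 8.97 and 13.6 with hairpin 6 and 19.1, 8.82 and 10.0 with hairpin 8. In D458 it held 9.55, 4.79 and 4.55 CPM in controls, 11.3, 8.39 and 7.43 with hairpin 7 and 10.2, 6.04 and 7.01 with hairpin 8. The groups of DDIT3 overlapped, with replicate 1 high in every group but D425 hairpin 6, where replicates 1 and 3 were alike. Its changes of 0.35 ± 0.34, 0.41 ± 0.34, 0.52 ± 0.36 and 0.30 ± 0.36 did not pass, though with the replicate block D458 hairpin 7 did (0.56, adjusted p = 0.0284).

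CREB3L1 (OASIS), an ER-membrane factor cut by the same proteases as ATF6 and best known for driving collagen genes, rose in all 4 comparisons from a level near 0. It held 0.805, 1.08 and 0.572 CPM in D425 controls, 2.89, 2.21 and 3.67 with hairpin 6 and 3.66, 1.94 and 3.64 with hairpin 8. In D458 the controls held 0.178, 0.196 and 0.0834 CPM, from 4, 4 and 2 counts. Hairpin 7 gave 5.63, 2.11 and 1.88 CPM there and hairpin 8 gave 6.77, 2.39 and 1.87, so every hairpin library was above every control and replicate 1 was highest under both D458 hairpins. The changes of CREB3L1 were 1.84 ± 0.51, 1.91 ± 0.51, 4.38 ± 0.67 and 4.58 ± 0.66 (adjusted p = 0.0245, 0.0145, 4.9e-04 and 3.5e-04). The D458 calls held without any 1 library. In D425 the hairpin 6 call was lost without control replicate 3, hairpin replicate 1 or hairpin replicate 3, and the hairpin 8 call without control replicate 3 (adjusted p = 0.0771). COL1A1, a collagen gene among the fibroblast markers above, also rose, by 3.05 ± 0.40, 2.84 ± 0.39, 2.53 ± 0.46 and 1.82 ± 0.47 (adjusted p = 2.1e-04, 2.1e-04, 0.00198 and 0.0133). Of the 5 fibroblast markers tested, 2, 2, 4 and 4 were called higher, beside 7.31%, 11.6%, 11.5% and 12.1% of all genes. The lowest of their estimates with D425 hairpin 6 was -0.93. A link between CREB3L1 and COL1A1 was not tested. CREB3L2, the paralog of CREB3L1, had changes from -0.24 ± 0.14 to -0.09 ± 0.14 and did not pass.

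Genes of ER-associated degradation were called lower at shares of 0% to 11.1%, beside 6.84% to 11.1% of all genes. Of the 9 (HERPUD1, SEL1L, SYVN1, EDEM1, EDEM2, DERL1, DERL2, SELS and the ER-membrane protein WFS1), 1, 1, 0 and 1 fell in the 4 comparisons. EDEM1, a lectin that takes misfolded glycoproteins out of the folding cycle, fell in D425 (-0.31 ± 0.09 and -0.29 ± 0.09, adjusted p = 0.0291 and 0.0323), and each call was lost without 5 of 6 libraries, all but control replicate 1 for hairpin 6 and all but hairpin replicate 2 for hairpin 8. The hairpin 8 call was also lost with no filter on low counts (adjusted p = 0.0526). SELS, a selenoprotein of the retrotranslocation complex, fell with D458 hairpin 8 (-0.41 ± 0.11, adjusted p = 0.0183), a call lost without control replicate 1, hairpin replicate 1 or hairpin replicate 2. DERL1, a membrane protein of the same complex, rose with D425 hairpin 8 (0.23 ± 0.07, adjusted p = 0.0343), a call lost without control replicate 2, control replicate 3, hairpin replicate 1 or hairpin replicate 2, and with no filter on low counts (adjusted p = 0.0641). HERPUD1, whose promoter holds an ERSE-II and an ATF4 core, had changes from -0.23 ± 0.23 to -0.06 ± 0.23. SEL1L and SYVN1 form the core ubiquitin ligase. SYVN1 ranged from -0.05 to 0.05, and SEL1L changed by -0.31 ± 0.11 with each D458 hairpin (adjusted p = 0.0554 and 0.0526, and 0.00291 and 0.00225 with the replicate block).

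Of the 4 genes of translocation and signal peptide cleavage, SEC61B and SSR1 moved and SEC61A1 and SPCS1 did not pass, with changes from -0.18 ± 0.09 to 0.04 ± 0.08. SEC61B, the small subunit of the channel through which proteins enter the ER, held 87.3, 80.3 and 98.7 CPM in D425 controls, 65.6, 64.9 and 67.6 with hairpin 6 and 61.2, 55.5 and 65.7 with hairpin 8. In D458 its controls (67.6, 56.3 and 61.5 CPM) overlapped both hairpin groups (57.2 to 65.6). Its changes were -0.43 ± 0.09 and -0.55 ± 0.09 in D425 (adjusted p = 0.00467 and 5.9e-04) and -0.01 ± 0.09 and -0.05 ± 0.09 in D458. SEC61B also lies on chromosome 9, and its 50 nearest tested genes had medians of -0.37 and -0.35 in D425, whose part was not tested. SSR1, a subunit of the translocon-associated protein complex, fell with D458 hairpin 7 (-0.27 ± 0.09, adjusted p = 0.0345), a call lost without 5 of 6 libraries, all but hairpin replicate 2, and with other size factors, with no filter or with D458 fitted alone (adjusted p up to 0.0701). With the replicate block SSR1 was lower with D458 hairpin 8 (-0.21, adjusted p = 0.0204) and higher with D425 hairpin 8 (0.24, adjusted p = 0.00886), and SEC61A1 was lower with D458 hairpin 8 (-0.18, adjusted p = 0.0304).

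The members were then set side by side by arm, with each gene placed in 1 arm from general knowledge, since ATF6 and XBP1 share many targets. Earlier results of these data were known when the arm lists were made, and the arm medians depend on this placement. Of 11 ATF6 genes (HSPA5, HSP90B1, CALR, PDIA4, HYOU1, SDF2L1, CRELD2, MANF, HERPUD1, SEL1L and XBP1), 5, 8, 9 and 9 fell and 0 rose, with median changes of -0.41, -0.45, -0.55 and -0.58. Of 14 XBP1 genes (DNAJB9, DNAJB11, DNAJC3, EDEM1, EDEM2, SEC61A1, SEC61B, SSR1, SPCS1, PDIA5, PDIA6, SYVN1, DERL1 and DERL2), 5, 5, 4 and 3 fell, with medians of -0.05, -0.14, -0.13 and -0.09, and DERL1 rose with D425 hairpin 8. Of the 3 PERK genes 0 fell and 1, 2, 2 and 1 rose, with medians of 0.36, 0.71, 0.61 and 0.46. A separate list of 12 PERK and ATF4 pathway genes outside the members had medians of -0.04, -0.16, 0.25 and 0.09. Of those 12, 1, 3, 2 and 2 fell and 1, 1, 4 and 2 rose. The differences between arms were not tested, and the medians of all genes tested lay between 0.01 and 0.02. Among all genes, 6.84%, 10.1%, 11.1% and 11.1% fell and 7.31%, 11.6%, 11.5% and 12.1% rose.

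Averaged over its 11 genes and set against the mean of the line's controls, the ATF6 arm stood at 0.21, -0.07 and -0.14 (log2) in D425 controls. It stood at -0.39, -0.42 and -0.41 with hairpin 6 and -0.44, -0.48 and -0.45 with hairpin 8. In D458 the ATF6 arm stood at 0.26, -0.16 and -0.11 in controls, -0.50, -0.63 and -0.60 with hairpin 7 and -0.50, -0.64 and -0.59 with hairpin 8. Control replicate 1 was the highest in both lines, and the lowest control was above the highest hairpin library. The XBP1 arm stood at 0.09, -0.03 and -0.06 in D425 controls against -0.20 to -0.09 with the hairpins, and at 0.16, -0.10 and -0.06 in D458 controls against -0.17 to -0.06. Its groups overlapped in D458. The PERK arm stood at 0.20, 0.05 and -0.25 in D425 controls against 0.34 to 0.97 with the hairpins, and at 0.34, -0.15 and -0.19 in D458 controls against 0.42 to 1.00 with hairpin 7 and 0.24 to 0.97 with hairpin 8. Control replicate 1 thus stood highest for all 3 arms, also for the one that rose under the hairpins.

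**Figure D3:**
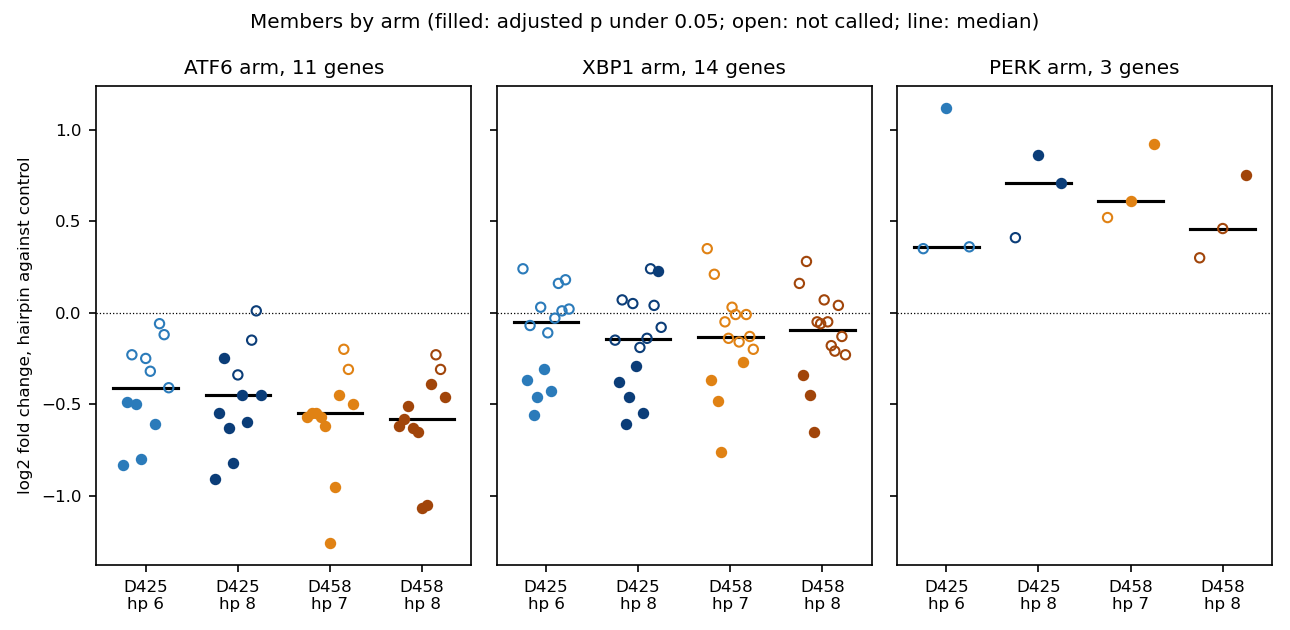
Log2 change of each member against its line's control (points) for the ATF6, XBP1 and PERK arms in the 4 comparisons, filled where called and open where not, with the arm's median as a line. The ATF6 medians lie between -0.58 and -0.41, the XBP1 medians between -0.14 and -0.05 and the PERK medians between 0.36 and 0.71.

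The promoter elements were read against these changes. Of the 10 members with an ERSE or ERSE-II, 4, 7, 8 and 8 fell. Of these 10, 8 fell in at least 1 comparison, 4 fell in all 4 and 0 rose. Of the 27 members with a promoter sequence and neither element, 9 fell in at least 1 comparison and 4 in all 4, among them MANF and PDIA4. Of the same 27, 3 rose in at least 1. Outside the members, 34 genes had either element and 20 of them were tested. Of these 20, 2, 3, 1 and 1 fell and 2, 2, 3 and 5 rose, with medians of -0.09, -0.20, 0.17 and 0.18, against -0.35, -0.41, -0.52 and -0.49 for the 10 members. Over all genes tested, 6.84%, 10.1%, 11.1% and 11.1% fell and 7.31%, 11.6%, 11.5% and 12.1% rose.

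The hairpins of a line were compared with each other as a check between constructs. No member was called between hairpins 8 and 6 in D425 or between hairpins 8 and 7 in D458, nor was any gene (0% of 14850 in each, edgeR quasi-likelihood test). At an unadjusted p under 0.05, 1 member (PDIA5, -0.39 ± 0.14) and 519 genes passed in D425 and 0 members and 274 genes in D458, and DESeq2 called 0 members in either line, with 6 genes in D425 and 4 in D458. EYA2 itself stood at 48.1 CPM with D458 hairpin 7 and 20.3 CPM with hairpin 8, a difference of -1.24 ± 0.27 that was not called (unadjusted p = 2.8e-04, adjusted p = 1). The differences between these hairpins, hairpin 8 minus 7, were -0.04 for HSPA5 (95% interval -0.29 to 0.21), -0.10 for XBP1 (-0.35 to 0.14), 0.20 for SDF2L1 (-0.12 to 0.52) and 0.20 for CREB3L1 (-0.80 to 1.19). In D425, hairpin 8 minus 6 was -0.09 for HSPA5 (-0.34 to 0.16) and -0.13 for XBP1 (-0.38 to 0.12).

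Hairpin 8 was used in both lines, which allowed its effect to be compared between them. The difference, D458 minus D425, was called for 5 members, 4 lower and 1 higher, against 5.65% of all genes lower and 6.19% higher. SEC61B fell in D425 and not in D458 (difference 0.50 ± 0.13, adjusted p = 0.019). XBP1 and SDF2L1 fell further in D458, by -0.60 ± 0.16 (adjusted p = 0.0277) and -0.73 ± 0.21 (adjusted p = 0.0331). SSR1 (0.24 in D425 and -0.21 in D458) and DERL1 (0.23 and -0.13) had estimates of opposite sign, with differences of -0.45 ± 0.12 (adjusted p = 0.026) and -0.36 ± 0.10 (adjusted p = 0.0346). For HSP90B1 and PDIA4 the difference was -0.02 (95% interval -0.29 to 0.24) and 0.00 (-0.23 to 0.24), and for HSPA5 0.30 (-0.06 to 0.65, adjusted p = 0.266). CREB3L1 differed by 2.66 ± 0.86, which did not pass (adjusted p = 0.055, DESeq2 0.016). With the replicate block 11 members passed: the same 5, CREB3L1 (2.64, adjusted p = 0.00312), HSPA5 (0.31, 0.0475), CALR (-0.27, 0.0299), PDIA5 (0.32, 0.0392), EIF2AK3 (0.68, 0.0255) and SEL1L (-0.33, 0.0194). Over all 14850 genes, calls of this difference went from 839 lower and 919 higher to 3934 in total.

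The count of 5 rests on single libraries. It was 0 without D425 control replicate 3, 1 without D425 control replicate 2 or D425 hairpin 8 replicate 1, and 2 without D425 hairpin 8 replicate 2. It was 3 without D458 control replicate 1 or 3, or without D458 hairpin 8 replicate 2 or 3. Of single libraries, SEC61B lost its call only without D425 control replicate 3 (adjusted p = 0.0596). It also lost the call without replicate 2 or replicate 3 in all groups (adjusted p = 0.165 and 0.163, edgeR). SSR1, XBP1, SDF2L1 and DERL1 lost theirs without 6, 7, 9 and 8 of the 12 libraries, with adjusted p up to 0.0852, 0.0911, 0.0906 and 0.102, and DERL1 also with no filter on low counts (0.0866). All of these 4 calls were lost without D425 control replicate 2 or 3, D425 hairpin 8 replicate 1 or D458 control replicate 1. The others that ended a call were D425 hairpin 8 replicate 2 (SSR1, SDF2L1 and DERL1) and 3 (SDF2L1), D458 control replicate 3 (XBP1 and SDF2L1), and D458 hairpin 8 replicate 1 (SDF2L1 and DERL1), 2 (XBP1, SDF2L1 and DERL1) and 3 (SSR1, XBP1 and DERL1).

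**Figure D4:**
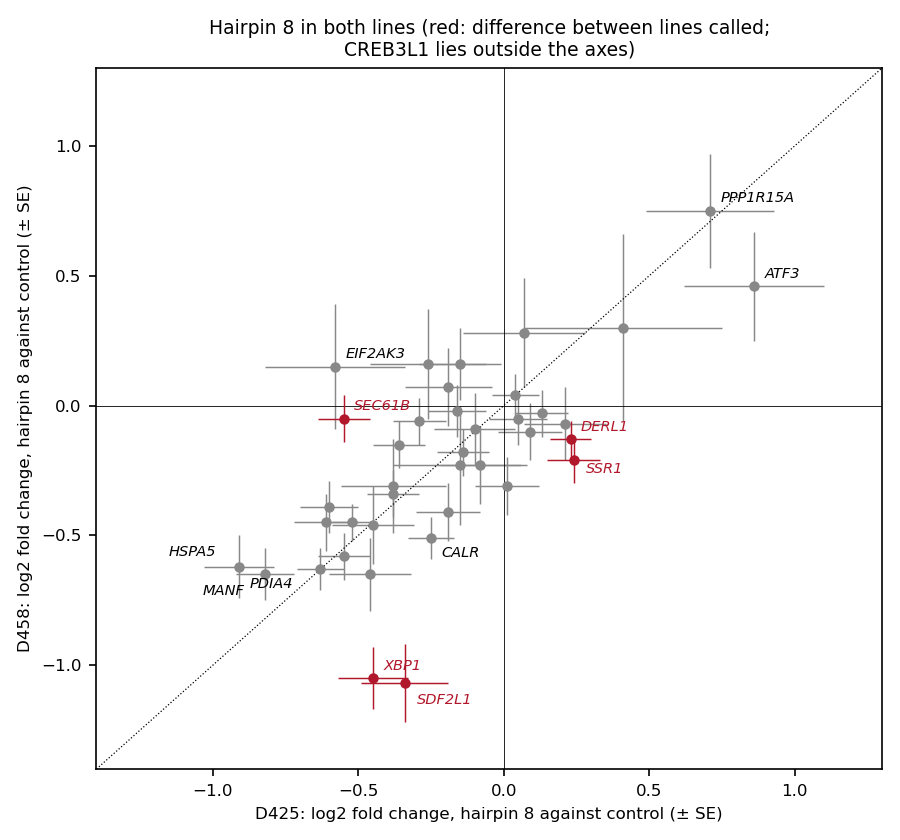
Log2 change with hairpin 8 in D425 (x axis) and D458 (y axis), ± SE, for 39 members, with the 5 whose difference between lines was called in red and the dotted line marking equal change. XBP1 and SDF2L1 lie below the dotted line, SEC61B above it, and most chaperones near it. CREB3L1, at 1.91 and 4.58, is outside the axes.

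The control groups gave the starting levels. Between them 16 members were lower and 7 higher in D458, against 31.4% lower and 31.4% higher over all genes. Lower in D458 were P4HB (-0.80 ± 0.09, adjusted p = 9.1e-07), HYOU1 (-0.63 ± 0.10, adjusted p = 4.2e-05), EDEM1 (-0.66 ± 0.09, adjusted p = 1e-05) and CREB3L2 (-1.32 ± 0.14, adjusted p = 6e-07). ATF3 was 2.85 ± 0.24 higher (adjusted p = 2.3e-08) and SSR1 0.74 ± 0.09 higher (adjusted p = 1.3e-06). Of the sensors, ATF6 was higher in D458 (0.43 ± 0.09, adjusted p = 7.1e-04), and ERN1 (-0.75 ± 0.21, adjusted p = 0.00485) and EIF2AK3 (-0.67 ± 0.24, adjusted p = 0.0209) were lower. Per kilobase of exon (CPM per kb), CALR had the highest mean in both lines, at 552 ± 62 in D425 and 662 ± 50.8 in D458 (mean ± SD, n = 3). In D425 it was followed by P4HB (491 ± 34.3), HSP90B1 (310 ± 40.1) and HSPA5 (302 ± 30.7), where CALR overlapped P4HB and HSP90B1 overlapped HSPA5. In D458 it was followed by HSP90B1 (338 ± 45), P4HB (281 ± 27.7) and HSPA5 (244 ± 58.1), of which each overlapped the next. ERN1 (2.42 and 1.44 CPM per kb) and CREB3L1 (0.305 and 0.0566) were among the lowest in both lines.

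Other genes of the pathway, 81 in lists that had been written from general knowledge, were counted in the same way. Of the 80 tested, 7, 11, 12 and 17 fell and 3, 4, 7 and 7 rose in the 4 comparisons, with medians of -0.05, -0.07, -0.10 and -0.08. Among all genes tested, 6.84%, 10.1%, 11.1% and 11.1% fell and 7.31%, 11.6%, 11.5% and 12.1% rose. The genes named from these lists were taken from those called with the smallest adjusted p. RPN1, a subunit of the enzyme that adds glycans to new ER proteins, fell in all 4, from 468 ± 12.3 CPM to 342 ± 18.9 and 315 ± 23.9 in D425 and from 452 ± 37.6 CPM to 341 ± 8.12 and 354 ± 24.1 in D458 (-0.45, -0.57, -0.41 and -0.35, each ± 0.08). VLDLR, a lipoprotein receptor known as an ATF4 target, rose in all 4, by 1.00 ± 0.23, 1.16 ± 0.23, 1.22 ± 0.24 and 1.17 ± 0.24 (adjusted p = 0.00947, 0.00264, 0.00324 and 0.00397), and its D425 hairpin 6 call was lost without control replicate 3.

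ATF4, the factor downstream of PERK, differed between the lines under hairpin 8. It was not called with D425 hairpin 6 (-0.09 ± 0.06, adjusted p = 0.373). It fell with D425 hairpin 8 (-0.24 ± 0.06, adjusted p = 0.00912, lost without control replicate 3 at 0.0592) and rose with the D458 hairpins (0.35 ± 0.06 and 0.22 ± 0.06, adjusted p = 0.00101 and 0.0139). Its hairpin 8 difference between lines was 0.46 ± 0.08 (adjusted p = 0.00271). TRIB3, an ATF4 target, fell in D425 (-0.28 ± 0.08 and -0.45 ± 0.08, adjusted p = 0.0249 and 0.001), where its hairpin 6 call was lost without 4 of 6 libraries (control replicates 2 and 3, hairpin replicates 1 and 3). In D458 its changes were -0.02 and -0.04. VCP, the ATPase that pulls proteins out of the ER membrane for degradation, fell in D458 (-0.48 ± 0.08 and -0.55 ± 0.08, adjusted p = 0.00134 and 4.8e-04), and MLEC, an ER lectin, fell there too (-0.48 ± 0.10 with either hairpin). In D425, SURF4, a cargo receptor for ER export, fell (-0.51 ± 0.08 and -0.57 ± 0.08, adjusted p = 6.2e-04 and 1.6e-04), while ERP44, an ER retention factor, rose (0.59 ± 0.09 and 0.57 ± 0.09, adjusted p = 8.3e-04 and 6.5e-04).

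Chaperones outside the ER were read for comparison. Of 22 genes listed as cytosolic chaperones, among them their regulator HSF1, 1, 4, 3 and 3 fell and 0, 0, 3 and 2 rose. Their medians were -0.05, -0.13, -0.11 and -0.13. Called lower were 4.55%, 18.2%, 13.6% and 13.6% of them, beside 6.84%, 10.1%, 11.1% and 11.1% of all genes. Of 9 mitochondrial chaperones, 0, 0, 1 and 1 fell (DNAJA3 in D458, -0.31 ± 0.08 and -0.35 ± 0.08) and 0 rose. The hairpin 7 call of DNAJA3 was lost without D458 control replicate 1 or hairpin replicate 2. HSPB1, a small cytosolic heat shock protein, rose in D458 by 2.68 ± 0.32 and 2.54 ± 0.32 (adjusted p = 1.2e-04 and 1.8e-04), where the controls averaged 19.2 ± 8.08 CPM and the hairpin groups 122 ± 34.8 and 111 ± 34.8. The 12 ER chaperones and co-chaperones among the members had 6, 8, 9 and 9 called lower (50%, 66.7%, 75% and 75%) and 0 higher, with medians of -0.44, -0.46, -0.52 and -0.49.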

How the data were processed

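Per the labels' protocols, RNA came from sorted cells and libraries were made with a stranded poly(A) kit. Per the submitters' processing notes, the tools were HTSeq, TopHat2, Bowtie2, Picard, SAMtools, FastQC and bcl2fastq, and the builds GRCh37 and hg19. Their versions, the strand setting and the treatment of reads with several matches were not given in the sources used here. The deposited values are raw counts per gene symbol. Overlapping and near-identical genes can share or lose such reads.

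The members and gene lists were chosen with earlier results of these data known. Counts of all 18 libraries were fitted with edgeR 4.0.16 (R 4.3.3, limma 3.58.1; filterByExpr with a minimum count of 10, TMM, robust quasi-likelihood test, 1 coefficient per group, 12 residual degrees of freedom), after which 14850 genes were tested and p-values adjusted by Benjamini-Hochberg over all of them. The biological coefficient of variation was 0.153. Alternatives were DESeq2 1.42.0, other size factors, no filter, the line's 9 libraries alone, the replicate number as a block, and leaving out libraries or replicate numbers. The fit was also run on simulated counts with the same spread for every gene and no effect of replicate number or date. That simulation therefore cannot judge the choice between the fits with and without the block.

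Same-numbered libraries share a number in the labels, whose meaning is not stated, and within a line also a date. The numbers were therefore taken to pair them. Replicates 2 and 3 share a date, so only the label number separates these. Deviations from group means correlated at 0.08 to 0.37 between same-numbered libraries and at -0.28 to 0.18 otherwise. Between replicates 2 and 3, D425 values were 0.17 to 0.18 across numbers and 0.08 to 0.14 within them. In D458 they were 0.03 to 0.16 and 0.11 to 0.23. The main calls came from the fit without this pairing.

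Values in every library were given, by rule, for members called one way in all 4 hairpin comparisons, the sensors, XBP1, ATF3, DDIT3 and PPP1R15A; SDF2L1, SEC61B and the whole groups of CALR were added after their values were seen. Of each other list, up to 4 called genes with the smallest adjusted p could be named. Promoters came from RefSeq (GRCh38.p14), and exon lengths from GENCODE gene models on GRCh38, another build than that of the counts.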

Additional observations from a re-analysis of the deposited data

Results flagged for a closer look

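The effect of hairpin 8 differed between D458 and D425 for 5 members by a test of the difference itself (D458 minus D425, log2, edgeR quasi-likelihood test adjusted over all genes). The values were 0.50 for SEC61B, -0.45 for SSR1, -0.60 for XBP1, -0.73 for SDF2L1 and -0.36 for DERL1. Of the 40 members 4 were thus lower and 1 higher, beside 5.65% of all genes lower and 6.19% higher. The count was 0 without D425 control replicate 3, and also 0 without replicate 2 or replicate 3 in all groups.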

How the results depend on the processing

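With the replicate number as a block, the count of members called went from 13 to 20 for D425 hairpin 6 and from 5 to 11 for the hairpin 8 difference between lines. For the controls it went from 23 to 20 (lower 16 to 12, higher 7 to 8). Calls over all 14850 genes also changed with the block. They went from 1015 lower and 1086 higher to 4134 in total for D425 hairpin 6. For the line difference they went from 839 lower and 919 higher to 3934 in total. The block changed no other call of a member in the hairpin comparisons or the line difference than those given with the results. Leaving out libraries or replicate numbers gave 3 to 16 members for D425 hairpin 6, 8 to 21 for D425 hairpin 8, 8 to 17 for D458 hairpin 7, 9 to 16 for D458 hairpin 8, 0 to 6 for the line difference and 14 to 26 for the controls, against 13, 19, 17, 16, 5 and 23. The low ends came without replicate 2 or 3, and for the line difference also without D425 control replicate 3 alone. The cause was not tested. Without replicate 1, the earlier date, the counts were 16, 21, 17 and 15, and 9 members were lower in all 4 comparisons, against 3 without replicate 2 and 2 without replicate 3. DESeq2 gave 11 lower in all 4, the block 13, and the other size factors, no filter and the single lines 9, in each case with all of the 9. Over the members and alternatives run, 2742 values kept their side of the threshold, 195 lost it and 63 gained it. The sign changed for 144 of 3000 estimates, of which 0 were called in either fit. Other scaling moved the median of all genes by at most 0.03. CREB3L1 rests on 2 to 4 counts in each D458 control library, which limits its precision there.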
